A study of Mus musculus with 9 samples.

Results

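The cyclin-dependent kinase (CDK) inhibitors and the core of the p53 pathway were described in RNA sequencing of mouse gastrocnemius, a mixed-fibre calf muscle. The 10 genes were named as a group, with earlier results of these data known, by a rule that uses no measured value: the CIP/KIP inhibitors Cdkn1a, Cdkn1b and Cdkn1c, the INK4 inhibitors Cdkn2a, Cdkn2b, Cdkn2c and Cdkn2d, and Trp53, Mdm2 and Ccng1. All 10 were among the 24062 gene symbols of the count table, and 9 had enough counts to be tested, as did 12989 symbols in all. Cdkn2a did not pass the low-count filter of the main test.

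CDK inhibitors bind the kinases that drive the cell cycle. INK4 proteins hold Cdk4 and Cdk6 away from D-type cyclins, and CIP/KIP proteins bind cyclin and kinase together, Cdk2 complexes above all. The transcription factor p53 switches on Cdkn1a, Mdm2 and Ccng1 after stress, and Mdm2 in turn marks p53 for destruction. In skeletal muscle, whose fibres are post-mitotic, several of these inhibitors are known from the exit of myoblasts from the cell cycle, and Cdkn2a and Cdkn1a are widely used as markers of senescent cells.

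Whole muscle was taken at 3 months of age from animals of mixed background (129Sve/C57BL/6 mix), and 9 libraries were made, 3 for each of 3 genotypes. Those labelled hetX753 and hetL1002P carried a single altered copy of Bub1b, with the X753 or the L1002P allele, and the third genotype was wild type (WT). Bub1b encodes BubR1, a protein of the spindle assembly checkpoint, and the series concerns alleles of it linked to the human disorder mosaic variegated aneuploidy. Nothing in the labels says whether replicates are separate animals. The p-values therefore describe only how much these samples vary, some of which may be technical.

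Totals ran from 19768149 to 33977252 counts per library. Bub1b, the altered gene, had 8, 8 and 5 counts in hetX753 libraries, 10, 9 and 2 in hetL1002P libraries and 21, 11 and 16 in WT libraries. By the edgeR test described below, its log2 fold change against WT was -1.21 (SE 0.44) in each carrier genotype. The adjusted p was 0.177 in hetX753 and 0.580 in hetL1002P, so neither difference was called. On the first principal component of all tested genes, the lowest scores were -47.5 (WT 3) and -32.5 (hetL1002P 3), and the other 7 libraries scored -9.52 to 28.8. In such bulk tissue, fewer cells of a type and less RNA per cell cannot be told apart.

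Promoter sequence is shown for the p53 targets whose levels are compared with each other below and for Cdkn2d, the 1 gene whose call depended on the fit. RefSeq windows of GRCm38.p6, from 250 bases before to 50 bases after an annotated start, were found for 9 of the 10 genes, Cdkn1c being the exception. They were searched for the p53 decamer, the 10-letter element bound by a p53 dimer, whose pattern reads the same on both strands. A decamer stood in the windows of 5 of the 9 genes (5 of 12 windows), against 8.36% of all 32851 windows and 9.55% of all 27025 genes. The windows below read 5′ to 3′ on the gene's strand, with decamers in capitals. They are Cdkn1a at chr17:29090729-29091028 (plus strand, its upstream start), Mdm2 at chr10:117710709-117711008 (minus), Ccng1 at chr11:40755237-40755536 (minus) and Cdkn2d at chr9:21291160-21291459 (minus).

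Cdkn1a: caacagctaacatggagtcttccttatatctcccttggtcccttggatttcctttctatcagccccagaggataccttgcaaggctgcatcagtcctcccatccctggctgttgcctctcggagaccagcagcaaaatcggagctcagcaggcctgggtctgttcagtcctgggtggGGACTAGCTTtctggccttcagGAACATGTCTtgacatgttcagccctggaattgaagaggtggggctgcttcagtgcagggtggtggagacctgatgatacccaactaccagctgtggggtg
Mdm2: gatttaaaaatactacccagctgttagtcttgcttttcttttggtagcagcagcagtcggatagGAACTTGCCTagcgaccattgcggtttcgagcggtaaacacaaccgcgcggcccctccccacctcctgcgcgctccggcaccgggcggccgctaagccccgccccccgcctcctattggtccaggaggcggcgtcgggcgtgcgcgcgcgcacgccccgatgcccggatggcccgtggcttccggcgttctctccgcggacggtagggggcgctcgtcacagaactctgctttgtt
Ccng1: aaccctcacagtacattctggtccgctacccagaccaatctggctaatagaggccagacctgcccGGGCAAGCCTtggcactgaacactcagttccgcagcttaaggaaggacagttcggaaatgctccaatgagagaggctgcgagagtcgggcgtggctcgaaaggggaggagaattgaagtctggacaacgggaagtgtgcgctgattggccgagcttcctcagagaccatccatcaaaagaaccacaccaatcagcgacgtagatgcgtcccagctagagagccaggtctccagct
Cdkn2d: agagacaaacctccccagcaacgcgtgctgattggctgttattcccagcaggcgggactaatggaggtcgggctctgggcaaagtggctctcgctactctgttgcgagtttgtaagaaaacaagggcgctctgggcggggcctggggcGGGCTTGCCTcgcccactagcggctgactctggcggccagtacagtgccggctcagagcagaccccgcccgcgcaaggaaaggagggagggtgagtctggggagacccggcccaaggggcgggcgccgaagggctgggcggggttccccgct

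The window of the upstream Cdkn1a start held 2 decamers, which began 73 and 51 bases before that start. Only 0.359% of all windows held 2 or more. The window of the other Cdkn1a start (chr17:29093519-29093818) held no decamer. The decamer began 186 bases before the start of Mdm2, 185 before that of Ccng1 and 102 before that of Cdkn2d, where its first bases overlapped a GC box (GGGCGG) that began at -106. GC boxes stood on either strand in 35.66% of all windows. The fifth gene with a decamer was Trp53 itself, at 75 bases before its start. These matches are letters in a window, and p53 binding was not measured. Sequence outside the windows was not searched, so p53 elements elsewhere in these genes would not be seen.

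Per kilobase of exon, Ccng1 was by far the most abundant of the 10 transcripts and Cdkn2a the least. Levels here are counts per 1000000 (CPM) of the scaled library total, divided by kilobases of exon and averaged over the 9 libraries. Ccng1, which encodes cyclin G1, a p53 target that binds the phosphatase PP2A, averaged 222 and ranged from 195 to 256, above 99.1% of tested genes by CPM. Cdkn1c (p57Kip2) averaged 12.2, Mdm2 10.5 and Cdkn2d (p19Ink4d) 9.61. The ranges of Cdkn1c and Mdm2 overlapped over the libraries, as did those of Mdm2 and Cdkn2d, so their order is not set by these data. Cdkn1b (p27Kip1) averaged 5.75, Cdkn1a (p21Cip1) 5.01, Cdkn2c (p18Ink4c) 3.40 and Trp53 3.30, each overlapping its neighbour in that order. Within libraries, however, Cdkn1a stood above Cdkn2c in all 9. Cdkn2b (p15Ink4b) averaged 1.46, below every library of those above it except in Cdkn2c, whose lowest library stood at 1.99 against 2.04 for the highest of Cdkn2b. The order depends on the length used. With the longest transcript in place of all exons, Mdm2 (16.9) stood above Cdkn1c (13.1), Cdkn1a (8.55) above Cdkn1b (5.75), and Trp53 (4.08) above Cdkn2c (3.69).

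Cdkn2a was close to silent at this depth. Its counts were 0, 0 and 1 in hetX753 libraries, 2, 8 and 3 in hetL1002P libraries and 9, 1 and 1 in WT libraries. The symbol joins transcripts of p16Ink4a, which inhibits Cdk4 and Cdk6, and of p19Arf, which restrains Mdm2, and the count does not separate them. The 2 hetX753 libraries with a count of 0 allow levels of up to 0.108 and 0.122 CPM of the unscaled total, the level of 3 counts, for counting error only. A single WT library held 9 of the 11 WT counts and a single hetL1002P library 8 of the 13 hetL1002P counts. In fits that kept this gene it was not called in any comparison (adjusted p = 0.253, 0.930 and 0.563 by edgeR without a low-count filter in hetX753 against WT, hetL1002P against WT and hetX753 against hetL1002P), and no fold change is given on so few counts. DESeq2 gave adjusted p = 0.991 in hetL1002P against WT and 0.497 in hetX753 against hetL1002P, and none in hetX753 against WT.

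**Figure D1:**
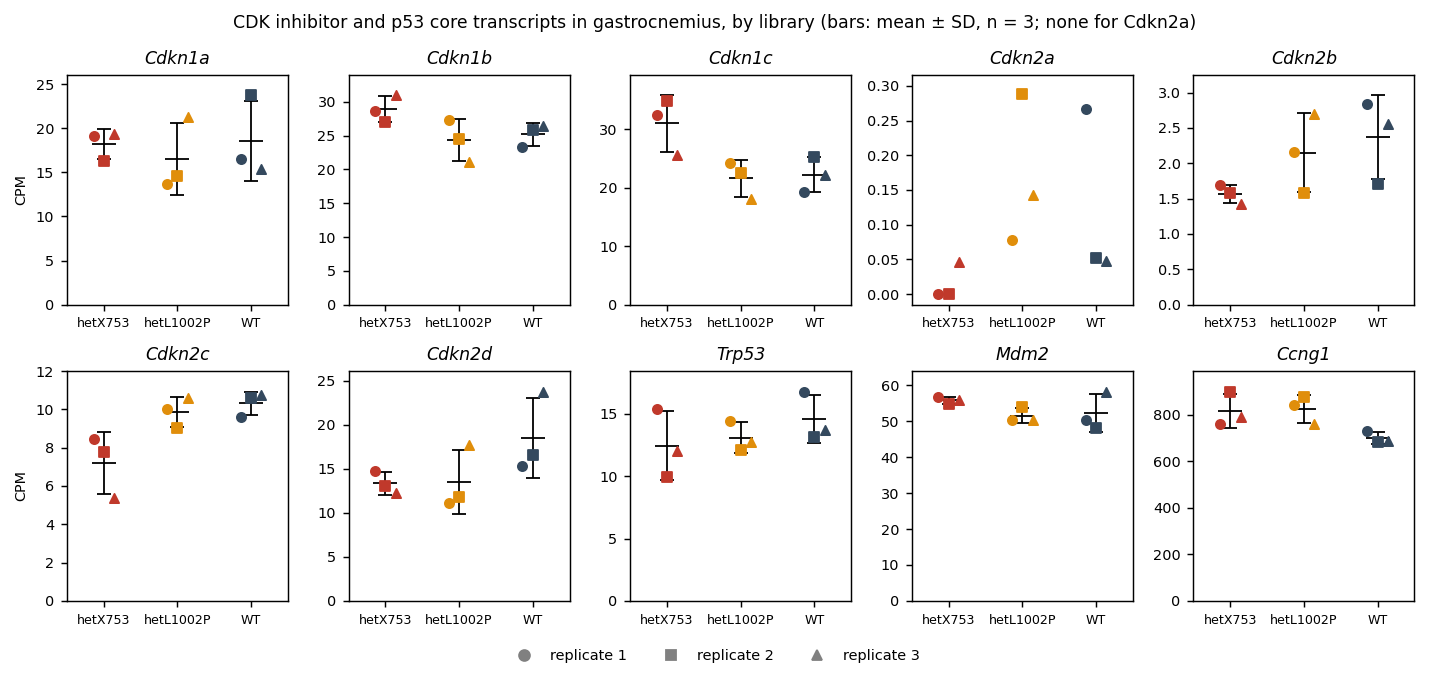
CPM of the 10 genes in each library (y axis, from 0, with a separate scale for each gene), with hetX753, hetL1002P and WT from left to right. Symbols give the replicate number and bars the mean ± SD of 3 libraries, left out for Cdkn2a. The hetX753 libraries lie above all WT libraries for Cdkn1b, Cdkn1c and Ccng1, and below them for Cdkn2b, Cdkn2c and Cdkn2d (for Cdkn2b not with library totals alone).

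The libraries of a genotype agreed most closely for Mdm2 and Ccng1. The within-genotype SD of log2 CPM was 0.0888 for Mdm2 and 0.101 for Ccng1, against a median of 0.236 over all tested genes. Only 5.44% of tested genes had a smaller SD than Mdm2 and 8.39% a smaller SD than Ccng1. Cdkn2b (0.313), Cdkn2d (0.297) and Cdkn1a (0.286) were the most variable of the 9 tested genes. This SD includes counting error, which is larger at low counts and was not separated from other variation. Counts per library were 31 to 96 for Cdkn2b, 934 to 1704 for Mdm2 and 13263 to 24728 for Ccng1.

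In hetX753 muscle against WT, the INK4 inhibitors that could be tested had lower values and 2 of the CIP/KIP inhibitors higher values, but none of the 9 genes passed the test. The test was edgeR's quasi-likelihood test with Benjamini-Hochberg adjustment over 12989 genes, called at an adjusted p under 0.05. It called 0 of the 9 genes, where 0.508% of all tested genes (66) were called. At an unadjusted p under 0.05 there were 4 of 9, against 20.9% of all tested genes, and DESeq2 called 0 of 9, against 4.79% of the genes it tested. All 3 hetX753 libraries lay above all 3 WT libraries for 3 of the 9 genes, where 16.7% of tested genes did so, and below them for 3 of 9, where 15.8% did so. The median log2 fold change of the 9 genes was -0.02, against 0.00 for all tested genes. With library totals alone as scaling, in place of trimmed means, the median log2 fold change of all tested genes was higher by 0.12 in this comparison, and differences of that size depend on the scaling.

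In hetL1002P muscle against WT, the log2 fold changes of the 9 genes ran from -0.46 (Cdkn2d) to 0.24 (Ccng1), with a median of -0.06 beside 0.01 for all tested genes. edgeR called 0 of 9, and it called 0.00% of all tested genes. At an unadjusted p under 0.05 there were also 0 of 9, against 7.96% of tested genes, and DESeq2 called 0 of 9, against 0.0167% of its genes. Ccng1 alone had all 3 hetL1002P libraries above all 3 WT libraries, where 5.67% of tested genes did so, and no gene had all 3 below, where 3.77% did so. The labels do not say what the replicate numbers mark. Same-numbered WT and hetL1002P libraries deviated together in all 3 pairs (r = 0.285, 0.360 and 0.516), most in the pair of WT 3 and hetL1002P 3, which stand apart from the rest. The unlike-numbered hetL1002P 2 and WT 1 also gave r = 0.198. Deviations within a genotype sum to 0, so these r cannot show whether libraries were paired. The replicate number was also entered as a block in a fit of these 2 genotypes. That fit called 5.01% of the 12684 genes it tested (635) and 1 of the 9 genes, Cdkn2d.

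Between hetX753 and hetL1002P muscle, edgeR called 0 of 9, where 0.115% of tested genes (15) were called. At an unadjusted p under 0.05 there were 2 of 9, Cdkn1c and Cdkn2c, against 8.24% of tested genes, and DESeq2 called 0 of 9, against 0.868% of its genes. All hetX753 libraries lay above all hetL1002P libraries for Cdkn1c and Mdm2 (background 7.44%) and below them for Cdkn2c (background 6.98%). For Mdm2 that separation was lost with library totals alone. The joint test of the 3 genotypes also called 0 of 9 (background 0.216%), with adjusted p from 0.281 for Cdkn1c to 0.821 for Cdkn1a, 2 of 9 at an unadjusted p under 0.05, where 1819 of the 12989 tested genes were, and 0 of 9 called by DESeq2, against 2.51% of its genes.

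Among the CIP/KIP genes, Cdkn1c differed most. It encodes p57Kip2, an inhibitor expressed from the maternal chromosome. Cdkn1c stood at 32.4, 34.9 and 25.6 CPM in hetX753 libraries, 24.1, 22.5 and 18.1 in hetL1002P libraries and 19.2, 25.2 and 22.2 in WT libraries. Every hetX753 library was above every other library, the lowest of them by a small margin over WT 2. Of all tested genes, 16.7% had all hetX753 libraries above WT and 7.44% above hetL1002P. The share above both at once was not counted. The log2 fold change was 0.48 (SE 0.16, 1.4-fold, adjusted p = 0.159) in hetX753 against WT and 0.52 (SE 0.16, 1.43-fold, adjusted p = 0.375) in hetX753 against hetL1002P. In hetL1002P against WT it was -0.04 (SE 0.16). Over the alternative fits the hetX753 against WT value stayed between 0.38 and 0.66, with adjusted p between 0.0663 and 0.343. The annotation places 625 exonic bases of Cdkn1c under Gm44732 on the other strand, whose reads cannot be told apart in libraries that do not mark strand.

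Cdkn1b, whose product p27Kip1 holds cells in G1, gave 28.7, 27.1 and 31.0 CPM in hetX753 libraries, 27.3, 24.5 and 21.2 in hetL1002P libraries and 23.3, 25.9 and 26.4 in WT libraries. The hetX753 libraries all exceeded the WT ones, while hetL1002P libraries lay on both sides of them. In hetX753 against WT the log2 fold change was 0.20 (SE 0.12, adjusted p = 0.353), and in hetL1002P against WT it was -0.05 (SE 0.12, adjusted p = 0.883).

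Cdkn1a encodes p21Cip1, the inhibitor through which p53 halts the cycle. It showed 19.2, 16.3 and 19.3 CPM in hetX753 libraries, 13.7, 14.6 and 21.2 in hetL1002P libraries and 16.5, 23.7 and 15.4 in WT libraries. The 3 genotypes overlapped throughout. The highest value came from a WT library and the lowest from a hetL1002P library. Against WT, the log2 fold change was -0.02 (SE 0.20, adjusted p = 0.963) in hetX753 and -0.17 (SE 0.20, adjusted p = 0.745) in hetL1002P. With library totals alone the value in hetX753 was 0.09, and AC167363.2 shares 273 exonic bases with Cdkn1a on the other strand.

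All 3 tested INK4 genes had lower values in hetX753 than in WT muscle, with a median log2 fold change of -0.51, and none passed the test. Cdkn2c encodes p18Ink4c, an INK4 inhibitor known from differentiating myoblasts. It stood at 8.44, 7.77 and 5.35 CPM in hetX753 libraries, 10.03, 9.02 and 10.6 in hetL1002P libraries and 9.61, 10.6 and 10.7 in WT libraries. All hetX753 libraries were below all 6 others, and hetX753 3 was the lowest. Of all tested genes, 15.8% had all hetX753 libraries below WT and 6.98% below hetL1002P. The share below both at once was not counted. The log2 fold change was -0.51 (SE 0.17, 1.43-fold lower, adjusted p = 0.162) in hetX753 against WT and -0.45 (SE 0.17, 1.37-fold lower, adjusted p = 0.508) in hetX753 against hetL1002P. Without hetX753 3 these values were -0.35 (adjusted p = 0.424) and -0.28 (adjusted p = 0.912). In hetL1002P against WT the value was -0.06 (SE 0.17).

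Cdkn2b encodes p15Ink4b, an inhibitor induced by TGF-beta, and lies beside Cdkn2a on chromosome 4. It had 1.69, 1.58 and 1.43 CPM in hetX753 libraries, 2.16, 1.58 and 2.70 in hetL1002P libraries and 2.84, 1.70 and 2.56 in WT libraries. These values rest on 31 to 96 counts per library. The hetX753 libraries were below the WT ones by 1.69 against 1.70 CPM at the nearest, and with library totals alone the ranges overlapped. The log2 fold change was -0.61 (SE 0.27, 1.52-fold lower, adjusted p = 0.234) in hetX753 and -0.16 (SE 0.26, adjusted p = 0.811) in hetL1002P, each against WT.

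Cdkn2d was the 1 gene of the 9 that passed in any fit run, in hetL1002P against WT with the replicate block on these 2 genotypes. It encodes p19Ink4d, the most abundant INK4 transcript here. Its libraries gave 14.7, 13.1 and 12.2 CPM in hetX753, 11.1, 11.8 and 17.7 in hetL1002P, and 15.3, 16.6 and 23.7 in WT. The 2 highest values came from WT 3 and hetL1002P 3, the libraries at the low end of the first principal component. Without the block the log2 fold change was -0.47 (SE 0.21, 1.39-fold lower, adjusted p = 0.237) in hetX753 and -0.46 (SE 0.21, 1.37-fold lower, adjusted p = 0.580) in hetL1002P, each against WT.

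Paired by number, hetL1002P minus WT was -0.46, -0.49 and -0.42 in log2 CPM for Cdkn2d. The blocked fit of these 2 genotypes gave -0.47 (SE 0.107, adjusted p = 0.0392, edgeR with Benjamini-Hochberg adjustment), where 5.01% of the 12684 genes tested in that fit were called. With the block on all 9 libraries the adjusted p was 0.507. When the trend of counts on transcript length and GC content was removed in the same blocked fit, the value was -0.23 (adjusted p = 0.395) and the call was lost. Without the block, removing that trend gave -0.22 in hetX753 and -0.23 in hetL1002P against WT. Without WT 3 the values were -0.25 and -0.24.

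**Figure D2:**
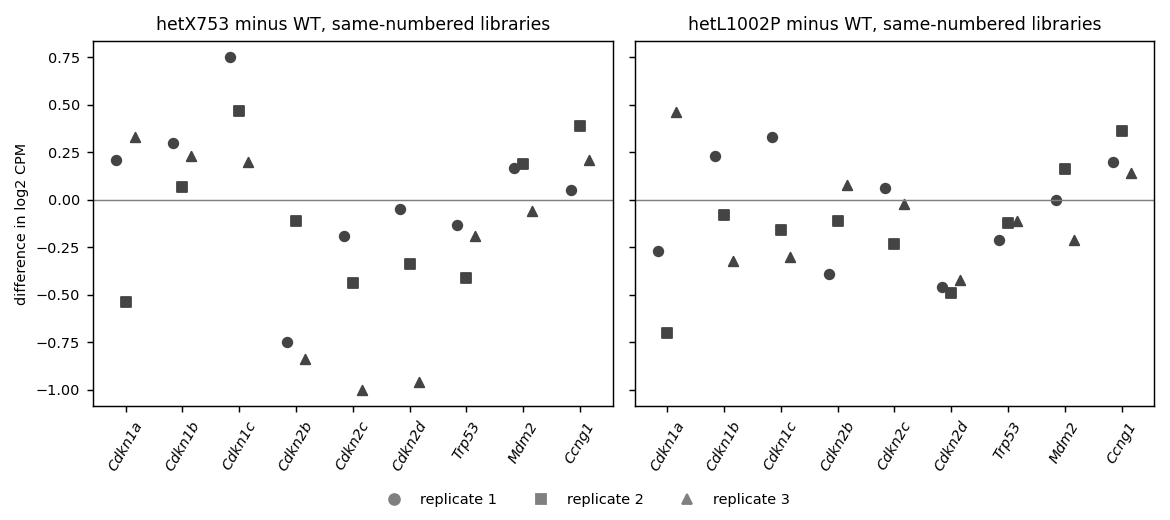
Difference in log2 CPM between libraries with the same replicate number (y axis), hetX753 minus WT on the left and hetL1002P minus WT on the right, for the 9 tested genes. The Cdkn2d points of hetL1002P minus WT lie between -0.49 and -0.42, while those of hetX753 minus WT spread from -0.96 to -0.05.

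Of the p53 core, neither Trp53 nor Mdm2 passed the test. Trp53 stood at 15.3, 9.90 and 12.0 CPM in hetX753 libraries, 14.4, 12.1 and 12.7 in hetL1002P libraries and 16.7, 13.2 and 13.7 in WT libraries, overlapping throughout. Its log2 fold change was -0.23 (SE 0.17, adjusted p = 0.449) in hetX753 and -0.16 (SE 0.17, adjusted p = 0.724) in hetL1002P, each against WT. Mdm2, the ubiquitin ligase that removes p53 protein, gave 56.7, 54.8 and 55.8 CPM in hetX753 libraries, 50.4, 53.9 and 50.3 in hetL1002P libraries and 50.4, 48.2 and 58.1 in WT libraries. The hetX753 values for Mdm2 were the tightest of the 3 genotypes (SD 0.939 CPM) and lay inside the WT range through WT 3 alone, the other WT libraries being lower. With library totals alone the hetX753 libraries (56.5 to 60.1) were all above the WT libraries (47.2 to 51.5). Its log2 fold change was 0.09 (SE 0.10, adjusted p = 0.608) in hetX753 and -0.02 (SE 0.10, adjusted p = 0.947) in hetL1002P, each against WT.

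Ccng1 was the 1 gene of the 10 whose 6 carrier libraries all lay above all 3 WT libraries, which 2.92% of tested genes did. It gave 759, 898 and 792 CPM in hetX753 libraries, 843, 876 and 758 in hetL1002P libraries and 731, 684 and 687 in WT libraries. These levels rest on 13263 to 24728 counts per library. The log2 fold change was 0.22 (SE 0.11, 1.17-fold, adjusted p = 0.279) in hetX753 and 0.24 (SE 0.11, 1.18-fold, adjusted p = 0.580) in hetL1002P, each against WT, so neither passed. Both comparisons use the same WT libraries. With library totals alone, the lowest hetL1002P library (701) lay under the highest WT library (728), and the separation held for hetX753 only. No gene had all 6 carrier libraries below WT, where 1.53% of tested genes did.

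**Figure D3:**
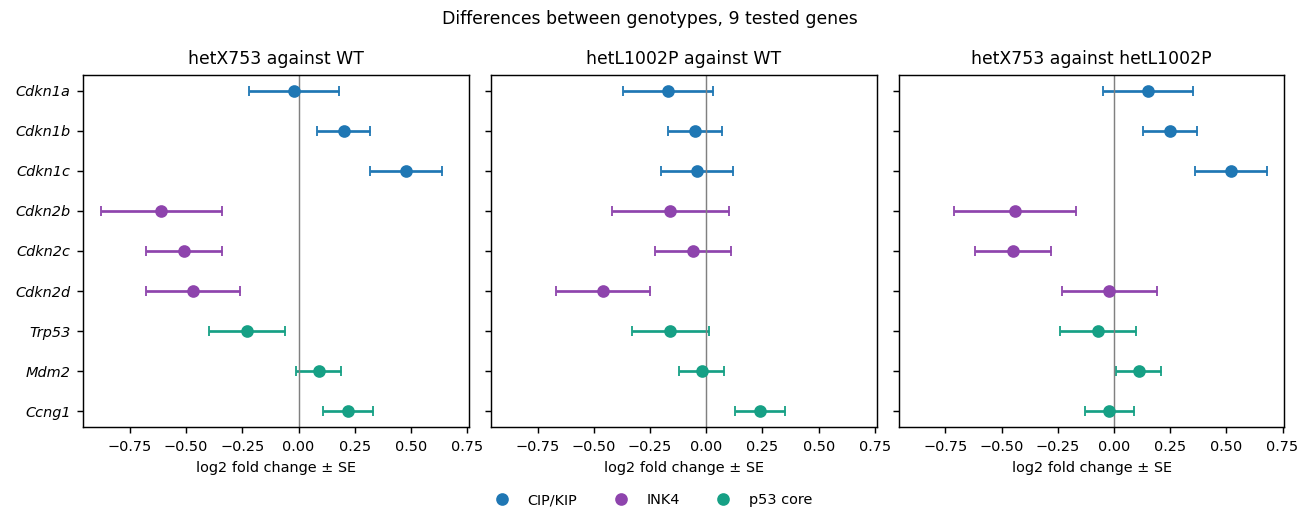
Log2 fold change ± SE (x axis) of the 9 tested genes (rows) in hetX753 against WT, hetL1002P against WT and hetX753 against hetL1002P, coloured by role. The INK4 genes Cdkn2b, Cdkn2c and Cdkn2d lie between -0.61 and -0.47 in hetX753 against WT, and none of the 27 values passed edgeR's test after adjustment.

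No correlation among the p53 targets Cdkn1a, Mdm2 and Ccng1 passed after adjustment. Their 3 pairs were correlated over all 9 libraries with exact two-sided permutation tests, adjusted over the 3 pairs. Pearson's r of Cdkn1a and Ccng1 was -0.528 (exact p = 0.144, adjusted p = 0.431) and Spearman's rho -0.533 (exact p = 0.148, adjusted p = 0.443). Without WT 2 and hetL1002P 3, the libraries farthest from the median of Cdkn1a, r was -0.285. It was -0.767 without WT 3 (exact p = 0.0298, adjusted p = 0.0895) and -0.122 with library totals alone (exact p = 0.749, adjusted p = 0.749). For Cdkn1a and Mdm2, r was -0.312 (exact p = 0.406, adjusted p = 0.609) and rho -0.317 (exact p = 0.410, adjusted p = 0.615), and r was 0.479 without the same libraries. For Mdm2 and Ccng1, r was 0.138 (exact p = 0.717, adjusted p = 0.717) and rho 0.183 (exact p = 0.644, adjusted p = 0.644), and r was 0.239 without WT 2 and WT 3. With library totals alone this r was 0.701 (exact p = 0.0409, adjusted p = 0.123), so its size depended on the scaling. The sign for Cdkn1a and Mdm2 rested on the libraries left out.

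**Figure D4:**
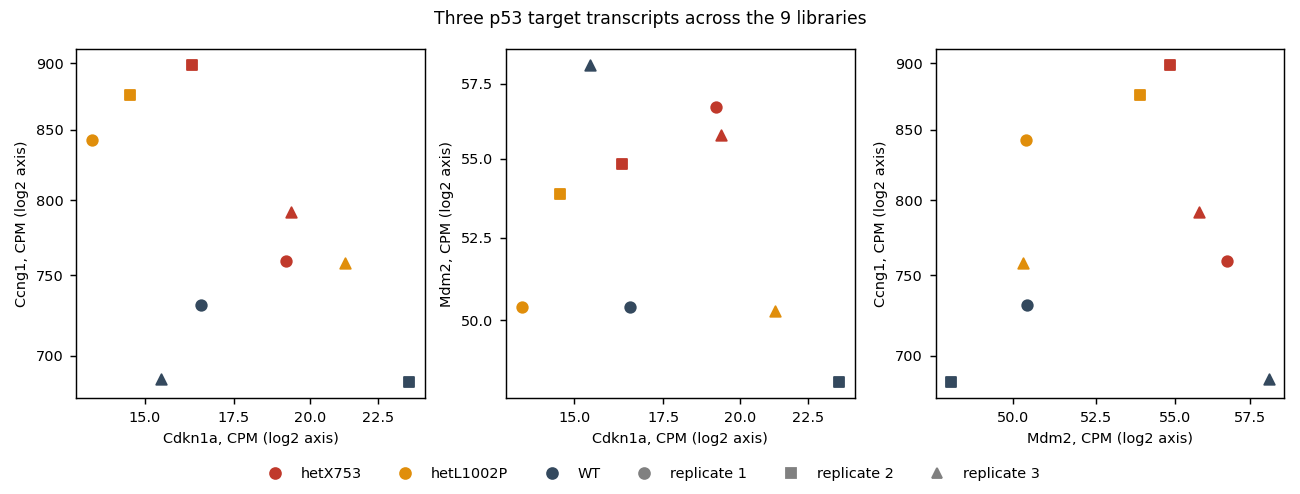
CPM of Cdkn1a, Mdm2 and Ccng1 against each other on log2 axes, with a point for each of the 9 libraries, coloured by genotype and shaped by replicate number. The carrier libraries lie above the WT libraries on the Ccng1 axis (for hetL1002P not with library totals alone), and Pearson's r of the 3 pairs ran from -0.528 to 0.138 with the scaling plotted.

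Other genes of the pathway were read from lists of known targets, regulators and partners. Exons of Rrm2b, Rchy1, Sirt1, Atr, Cdk4, Rb1, Rbl2, Kdm6b, Spry1 and Cd81 overlap genes on the other strand, whose reads cannot be told apart. Of 32 p53 targets beyond those above, 30 were tested and edgeR called 0 in each comparison, with 5, 0 and 5 at an unadjusted p under 0.05 in hetX753 against WT, hetL1002P against WT and hetX753 against hetL1002P. DESeq2 called 2, 0 and 0, and later counts of 3 follow the same order of comparisons. In that order, 20.9%, 7.96% and 8.24% of all tested genes had an unadjusted p under 0.05. DESeq2 called 4.79%, 0.0167% and 0.868% of its genes, and edgeR 0.508%, 0.00% and 0.115%. These shares are the background for the counts of every list below. The median log2 fold change of these p53 targets was -0.05 in hetX753 and -0.10 in hetL1002P against WT, beside 0.00 and 0.01 for all tested genes. Rrm2b, a ribonucleotide reductase subunit that supplies nucleotides in resting cells, stood at 24.0 ± 2.13 CPM in hetX753 and 14.7 ± 1.13 CPM in WT muscle (SD, n = 3 each; log2 fold change 0.70, SE 0.16, adjusted p = 0.0793 by edgeR). Perp, a membrane protein of desmosomes, was measured at 1.48 ± 0.348 CPM in hetX753 and 3.23 ± 0.569 CPM in WT muscle (SD, n = 3 each; adjusted p = 0.136 by edgeR). These were the 2 that DESeq2 called. Pidd1, with a log2 fold change of 1.49 in hetX753 against WT, and the polymerase gene Polk, with one of -0.50, completed the 4 targets with the smallest joint p (adjusted p = 0.163 and 0.257 by edgeR). The Pidd1 value (SE 0.51) rests on low levels, of 0.745 ± 0.0779 CPM in hetX753 and 0.272 ± 0.169 CPM in WT muscle (SD, n = 3 each).

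Of 21 regulators and relatives of p53, 19 were tested and edgeR called 0 in each comparison, with 6, 2 and 1 at an unadjusted p under 0.05 and 1, 0 and 0 called by DESeq2. Mdm4, which holds p53 inactive beside Mdm2, had a log2 fold change of 0.59 (SE 0.20, adjusted p = 0.162) in hetX753 against WT. Sirt1, a deacetylase that acts on p53, had 0.55 (adjusted p = 0.159), the damage-sensing kinase gene Atr 0.43 (adjusted p = 0.193) and the p53 ubiquitin ligase gene Rchy1 -0.39 (adjusted p = 0.126). Of these, Rchy1 was the 1 called by DESeq2.

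Among 22 cyclins, CDKs and their activators, 14 were tested and 1 passed in hetX753 against WT, where 0.508% of all tested genes did. This was Ccne2, with higher values in hetX753 muscle. It encodes cyclin E2, a partner of Cdk2 and a target of CIP/KIP inhibition. Ccne2 stood at 2.33, 2.88 and 2.58 CPM in hetX753 libraries, 2.16, 2.08 and 1.90 in hetL1002P libraries and 1.18, 1.14 and 1.26 in WT libraries. Every carrier library was above every WT library, a pattern that 2.92% of tested genes showed. The log2 fold change was 1.12 (SE 0.20, adjusted p = 0.0417 by edgeR) in hetX753 and 0.78 (SE 0.20, adjusted p = 0.580) in hetL1002P, each against WT, and 0.34 (SE 0.19, adjusted p = 0.716) in hetX753 against hetL1002P. The call in hetX753 held in 7 of 19 alternative fits, with adjusted p from 0.0043 to 0.174 and log2 values from 1.02 to 1.24. It was lost, among others, without any 1 of the WT or hetX753 libraries and with the replicate block. These values rest on 22 to 73 counts, and 609 exonic bases of Ccne2 lie under Ints8 on the other strand. Cdk4, the kinase that INK4 proteins inhibit, had 22.9, 22.5 and 19.9 CPM in hetX753 libraries and 26.9, 25.2 and 35.9 in WT libraries (log2 fold change -0.43, adjusted p = 0.162), the highest being WT 3, without which the value was -0.26 (adjusted p = 0.418). In the list, 0 genes passed in hetL1002P against WT and 0 in hetX753 against hetL1002P, with 2 and 1 at an unadjusted p under 0.05 and 0 by DESeq2 in each.

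Of 18 genes of the retinoblastoma and E2F group, through which these kinases act, 16 were tested and edgeR called 0 in each comparison (4, 1 and 1 at an unadjusted p under 0.05, 0 by DESeq2 in each). Rb1, the retinoblastoma gene, stood at 14.04, 19.0 and 15.7 CPM in hetX753 libraries, 17.9, 11.5 and 14.9 in hetL1002P libraries and 12.4, 8.62 and 9.76 in WT libraries, with a log2 fold change of 0.66 (adjusted p = 0.136) in hetX753 against WT. Its relative Rbl2 had 0.42 (adjusted p = 0.141), and Lin9, of the MuvB complex, 0.60 (adjusted p = 0.136). Tfdp1, the E2F partner, had 0.26 (adjusted p = 0.171).

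All 30 listed regulators of the inhibitor genes were tested, and edgeR called 0 in each comparison, with 5, 1 and 2 at an unadjusted p under 0.05 and 2, 0 and 1 called by DESeq2. In hetX753 against WT their median log2 fold change was 0.13, with 19 of 30 above 0, beside 0.00 for all tested genes. Kdm6b, a histone H3K27 demethylase known to open the Cdkn2a locus, had 0.71 (SE 0.15, adjusted p = 0.0767), and its X-linked relative Kdm6a 0.71 (SE 0.23, adjusted p = 0.153). Bmi1, a Polycomb repressor of Cdkn2a, had 0.28 (adjusted p = 0.183). Foxo4, one of the FoxO factors that induce Cdkn1b, had 0.37 (adjusted p = 0.118).

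Of 27 secreted factors associated with senescence, 14 were tested and edgeR called 0 in each comparison (4, 1 and 1 at an unadjusted p under 0.05, and 2, 0 and 0 by DESeq2). Values lay below 0 for 11 of 14 in hetX753 and 12 of 14 in hetL1002P against WT, with medians of -0.23 and -0.09. Igfbp6, a binding protein of insulin-like growth factors, stood at 36.5 ± 1.77 CPM in hetX753 and 55.0 ± 8.53 CPM in WT muscle (SD, n = 3 each; adjusted p = 0.121 by edgeR). Igfbp5 had a log2 fold change of -0.54 (adjusted p = 0.268), the matrix metalloproteinase gene Mmp3 -1.78 (adjusted p = 0.135) and the chemokine gene Ccl8 -2.92 (adjusted p = 0.122). The Mmp3 value (SE 0.53) rests on low levels, of 0.196 ± 0.113 CPM in hetX753 and 0.705 ± 0.160 CPM in WT libraries (SD, n = 3 each). Ccl8 averaged 2.38 ± 2.63 CPM in WT libraries (SD, n = 3), and without WT 3 its log2 fold change was -1.51 (adjusted p = 0.303 by edgeR). Of the 10 genes listed around Cdkn1c in its imprinted domain, 8 were tested and edgeR called 0 in each comparison (1, 0 and 0 at an unadjusted p under 0.05, 0 by DESeq2). In hetX753 against WT, 7 of the 8 lay below 0 where Cdkn1c lay above it, with Cd81 at -0.26 (adjusted p = 0.167).

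**Figure D5:**
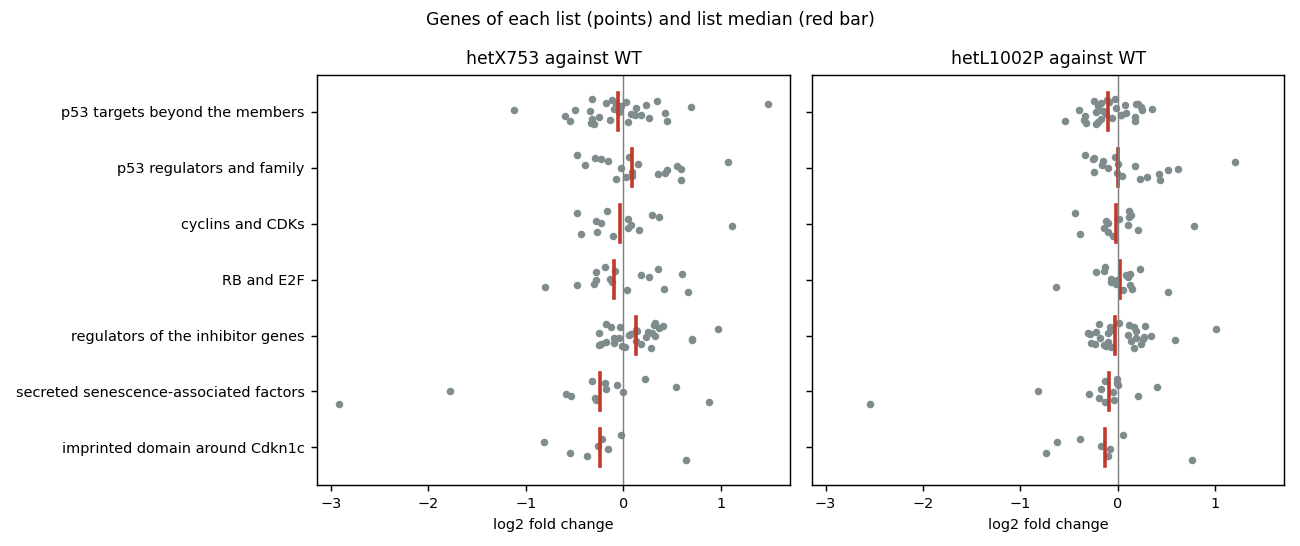
Log2 fold change (x axis) of each tested gene (points) of the pathway lists in hetX753 against WT and hetL1002P against WT, with list medians as red bars. Medians lie between -0.24 and 0.13 in hetX753 against WT, and the point at 1.12 among the cyclins and CDKs is Ccne2.

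Markers of the cells in whole muscle were read beside these values. Of the marker lists, that of muscle fibres, the labelled tissue, had the highest sums, of 191000 to 212000 CPM in hetX753, 206000 to 238000 in hetL1002P and 238000 to 274000 in WT libraries, and 8 of 12 lay below 0 in each carrier against WT. edgeR called 0 markers of fibres, fibroblasts, macrophages, smooth muscle or adipocytes in any comparison, with 7, 3, 3, 2 and 3 at an unadjusted p under 0.05 in hetX753 against WT and 2, 1, 0, 0 and 0 called there by DESeq2. These lists held 12, 10, 10, 8 and 8 tested markers. Of all tested genes, 20.9% had an unadjusted p under 0.05 in that comparison, and DESeq2 called 4.79% of its genes. In hetX753 against WT, 10 of 10 fibroblast and fibro-adipogenic markers and 10 of 10 macrophage markers lay below 0, with medians of -0.48 and -0.45. Fibroblast markers summed to 647 to 807 CPM in hetX753, 591 to 1340 in hetL1002P and 921 to 1080 in WT libraries, and macrophage markers to 88.1 to 94.4 CPM in hetX753, 77.9 to 154 in hetL1002P and 83.3 to 141 in WT libraries. Smooth muscle and pericyte markers lay above 0 for 8 of 8 in hetX753 against WT, summing to 215 to 348 CPM in hetX753, 178 to 264 in hetL1002P and 161 to 231 in WT libraries. Adipocyte markers lay below 0 for 8 of 8 in hetL1002P against WT, with a median of -0.49, and summed to 241 to 495 CPM in hetX753, 202 to 243 in hetL1002P and 303 to 477 in WT libraries. No marker of these 5 lists was at 0 in all libraries. Within their genotypes, WT 3 and hetL1002P 3 had the highest fibre sums and the lowest fibroblast and smooth muscle sums, and hetL1002P 3 also the lowest macrophage and adipocyte sums. Of 10 lymphocyte markers only 2 were tested, both above 0 in hetX753 against WT, and the list summed to 1.66 to 3.12 CPM in hetX753, 0.934 to 2.48 in hetL1002P and 0.822 to 1.24 in WT libraries. Tendon markers lay below 0 for 5 of 7 in hetX753 against WT, with a median of -0.37 and sums of 117 to 228 CPM in hetX753, 149 to 274 in hetL1002P and 205 to 211 in WT libraries. edgeR called 0 of both lists in that comparison (1 in each at an unadjusted p under 0.05, and 1 in each by DESeq2). Satellite cell markers summed to 235 to 241 CPM in hetX753, 234 to 259 in hetL1002P and 238 to 259 in WT libraries. In hetX753 against WT, 4 of the 9 tested lay above 0 and 5 below, with a median of -0.06. Of the 9 tested satellite cell markers, edgeR called 1 in that comparison (2 at an unadjusted p under 0.05, 1 by DESeq2), where 0.508% of all tested genes were called. This was Spry1, a brake on growth factor signalling in quiescent satellite cells. Spry1 was lower in hetX753, at 16.4 ± 0.227 CPM against 29.9 ± 3.17 CPM in WT (SD, n = 3 each, log2 fold change -0.86, adjusted p = 0.0450 by edgeR). Its call held in 10 of 19 alternative fits and was lost without any 1 of the WT or hetX753 libraries. The part of these cell types in the values of the CDK inhibitors and p53 genes was not tested.

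The genes whose pattern over the 9 libraries was most like that of each tested gene were found among 11102 genes averaging at least 1 CPM, by Pearson's r of log2 CPM. For Cdkn2d they were Cacng1 (r = 0.990), Rnf181 (0.987) and Hint1 (0.986), the closest match of any of the 9. For Cdkn2c they were Ccdc91 (0.972), Glb1 (0.956) and Map1s (0.952), and for Cdkn2b Aga (0.964), Fdps (0.958) and Ttc4 (0.949). For Cdkn1c they included Strn4 (0.943) and Phka2 (0.922). For Cdkn1b they were Sncaip (0.937), Acap3 (0.930) and Ankrd13b (0.923), and for Cdkn1a Wdr46 (0.917), Wbscr27 (0.916) and Fbxw8 (0.863). For Ccng1 they were Hdgfrp3 (0.954), Kdm1b (0.952) and Zfp641 (0.941), for Mdm2 Wdr45b (0.943), Stx5a (0.927) and Rufy3 (0.911), and for Trp53 Egr1 (0.917), Tmem115 (0.896) and Edn1 (0.890). The points share libraries and depth, and the highest of 11102 values over 9 points is high by selection.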

How the data were processed

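Gastrocnemius RNA was sequenced from 9 libraries of 3 genotypes, prepared with a kit that does not mark strand, per the labels' protocols. The table deposited by the authors holds raw counts, whole numbers per gene symbol. Named in the submitters' processing notes are featureCounts 1.4.6, Subread, Bowtie2 2.2.6, TopHat2 2.0.14 and the build mm10. Their roles, the annotation and the strand setting are not given in the sources used.

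Counts were tested with edgeR 4.0.16 in R 4.3.3 (filterByExpr, TMM scaling, robust quasi-likelihood fit of all 9 libraries on genotype, 6 residual degrees of freedom), adjusted by Benjamini-Hochberg over 12989 genes. Log2 fold changes are the first-named genotype over the second. The SE of each is its size over the square root of F. Log2 CPM used a prior count of 2. DESeq2 1.42.0 was an alternative.

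GENCODE M21 gave exonic length and GC content (98.41% of symbols matched, 99.44% of tested genes) and RefSeq GRCm38.p6 gave promoters and coordinates. Replicates differed beyond sampling noise (14.9 to 68.5 chi-square units per degree of freedom). Deviations from genotype means correlated in all 3 same-numbered WT and hetL1002P pairs (r = 0.285, 0.360 and 0.516), past the bound of 0.1 used here for pairing, though the labels do not say what the numbers mark. The unlike-numbered hetL1002P 2 and WT 1 were also past it (r = 0.198). Deviations within a genotype sum to 0, so the 3 values are not independent and cannot show whether libraries were paired. Same-numbered pairs with hetX753 ran from -0.279 to 0.164, with only hetX753 2 and WT 2 (0.164) past the bound. Unlike-numbered pairs with hetX753 passed it too, among them hetX753 1 and hetL1002P 3 (0.281).

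The 10 genes and all lists were chosen with earlier results of these data known. From each list at most 4 genes are named, those with the smallest joint p; likeness takes the 3 highest r, without predicted genes, and 1 gene of those for Cdkn1c is not reported here. Intervals and floors cover counting error only.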

Additional observations from a re-analysis of the deposited data

How the results depend on the processing

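Over 522 values of 27 gene comparisons under 19 or 20 alternatives, 482 kept sign and side of the threshold, 39 changed sign in 10 comparisons near 0, and 1 passed (Cdkn2d under the block). In hetX753 against WT, every tested gene but Cdkn1a kept its sign throughout; the cause of the changes was not tested. Cdkn1a there was 0.09 with library totals alone, 0.00 with the replicate block on 2 genotypes, 0.13 with the length and GC trend removed, and -0.14 to 0.19 without 1 library. In hetL1002P against WT, library totals alone gave 0.05 for Cdkn1b, 0.06 for Cdkn1c, 0.03 for Cdkn2c and 0.08 for Mdm2. Removing the length and GC trend there gave 0.15 for Cdkn1c, 0.04 for Cdkn2b and 0.04 for Cdkn2c, and with the replicate block as well 0.14, 0.07 and 0.04. Without both WT 3 and hetL1002P 3, Cdkn1b, Cdkn1c and Mdm2 were each at 0.08. Without 1 library, Cdkn1a ran from -0.39 to 0.04, Cdkn1b from -0.15 to 0.04, Cdkn1c from -0.14 to 0.07, Cdkn2b from -0.36 to 0.01 and Mdm2 from -0.08 to 0.06. In hetX753 against hetL1002P, Cdkn2d was 0.03 with library totals alone, 0.02 with the replicate block on 9 libraries, 0.01 with it on 2 genotypes, 0.01 with the trend removed and 0.22 without both WT 3 and hetL1002P 3, and Ccng1 was 0.01 with library totals alone. Without 1 library, Cdkn2d ran from -0.13 to 0.22, Trp53 from -0.25 to 0.07 and Ccng1 from -0.08 to 0.04. The r of Cdkn1a and Ccng1 ran from -0.767 to -0.332, that of Cdkn1a and Mdm2 from -0.565 to 0.0529 and that of Mdm2 and Ccng1 from -0.178 to 0.511 without 1 library, the last being 0.701 with library totals alone and -0.0155 on deviations from genotype means.

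The count of called genes moved far more. In hetX753 against WT the 66 calls became 630 with DESeq2, 31 with library totals alone, 254 with the 2 genotypes alone, 106 with the replicate block on them, 340 without both WT 3 and hetL1002P 3, and 0 to 669 without 1 library. In hetL1002P against WT the 0 calls became 3 with DESeq2, 2 without a low-count filter, 635 with the replicate block on 2 genotypes, 1 with the trend removed, 1 with both, 2 without both WT 3 and hetL1002P 3, and 0 to 1 without 1 library. Of the 9 genes, 1 (Cdkn2d) was called there under the block. In hetX753 against hetL1002P the 15 calls became 126 with DESeq2, 38 without a low-count filter, 5 with the 2 genotypes alone, 31 and 2 with the replicate block on 9 libraries and on 2 genotypes, 45 with the trend removed, 95 without both WT 3 and hetL1002P 3, and 0 to 21 without 1 library. In the joint test the 28 calls became 356 with DESeq2, 16 with library totals alone, 58 without a filter, 51 with the trend removed, 194 without both libraries, and 0 to 209 without 1 library. The block changed no other call among the 9 genes. Depth limits Cdkn2a, with at most 9 counts per library, and Cdkn2b, with 31 to 96.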
